A study of Homo sapiens with 6 samples.

Results

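The genes described here are 10 output and feedback genes of the ERK pathway: the ERK phosphatases DUSP4, DUSP5 and DUSP6, the Sprouty and Spred inhibitors SPRY2, SPRY4, SPRED1 and SPRED2, and the ERK-induced genes EGR1, IER3 and PHLDA1. They were chosen by symbol for their place in the pathway, with earlier results of these data known. The member counts set beside shares of all genes are therefore descriptive and no test of the set. All 10 were found among the 28395 genes of the count table. All 10 also passed the filter on low counts and were among the 11329 genes tested. The cells were TC28a2, a line of immortalised human chondrocytes, and their total RNA was taken 48 h after transfection with either a control vector or a vector that overexpresses ZEB1, a zinc finger transcription factor that represses epithelial genes. Each vector had 3 libraries, made by DRUG-seq, a low-cost form of RNA-seq for many samples. Both groups share the cell line and the transfection, and no untransfected cells were analysed here. Since no label states separate cultures for the replicates, the p-values speak only to the spread among the 6 libraries, which may be technical. By its title, the series belongs to work on ZEB1 and senescence in osteoarthritis of cartilage and meniscus. In such bulk samples, fewer cells that express a gene and less of its RNA per cell cannot be told apart.

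ERK is the last kinase of a chain in which growth factor receptors switch on the GTPase Ras, Ras recruits Raf, Raf phosphorylates MEK and MEK phosphorylates ERK. Active ERK turns on transcription factors of the ETS family and the SRF partners of the ternary complex, and these raise a set of early genes within minutes to hours. Several of those genes encode brakes. The DUSPs remove phosphate from ERK itself, while Sprouty and Spred proteins act higher up, at the level of Ras and Raf. The mRNA of such genes is therefore often read as a gauge of ERK activity, and in chondrocytes the pathway is known to restrain cartilage matrix genes and to drive proteases.

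EGR1 is a textbook case of a gene switched on by ERK through SRF and its ternary complex partners. Its promoter is printed because, of the 7 members with a RefSeq promoter entry (DUSP6, SPRY2, SPRY4, SPRED1, SPRED2, EGR1 and PHLDA1), it was the 1 in which CArG boxes, the sites of SRF, were found. The stretch is the 250 bases before the EGR1 start in RefSeq (GRCh38.p14, chr5:138465229-138465478, plus strand), with the CArG boxes in capitals, and no GENCODE exon overlaps it.
EGR1: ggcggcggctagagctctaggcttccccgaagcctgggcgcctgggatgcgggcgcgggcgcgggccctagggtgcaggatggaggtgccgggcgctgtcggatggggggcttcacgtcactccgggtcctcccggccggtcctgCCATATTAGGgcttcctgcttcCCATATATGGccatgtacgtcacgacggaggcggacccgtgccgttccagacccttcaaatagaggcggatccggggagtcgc
The 2 boxes begin at -105 and -83 from the start. Of 35116 RefSeq promoter windows of 300 bases, 1.29% held a CArG box on either strand. The letters of the E-box that ZEB1 binds, CACCTG or its reverse complement, were in 20.6% of those windows and in 0 of the 10 windows of the 7 members, some of which have several. The shorter CACCT, which lies inside that E-box, was in 51.6% of all windows and in 4 of the 10 windows of these 7 genes, 1 each of SPRY2, SPRY4, SPRED2 and EGR1. For EGR1 it begins at -167 on the opposite strand. These are matches of letters within short windows, and no binding was measured.

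The control libraries held 5359200 to 5878640 counts and the ZEB1 libraries 1277632, 1621270 and 3316228 in replicates 1, 2 and 3, the order used for all values below. Levels are given as CPM, counts scaled to library size with TMM factors, which correct for differences in composition. A level of 3 counts was 0.481 to 0.547 CPM for the controls, and 2.67, 1.93 and 0.894 CPM for ZEB1. ZEB1 itself, the check of the labels, had 20.8 to 32.6 CPM under the control vector and 12267, 14047 and 6894 CPM under its own vector, and was the 1 gene past an edgeR adjusted p of 0.05 (2.37e-13). Vector and endogenous ZEB1 reads were not separated. Of 16 chondrocyte markers, 1 (SOX9) passed the low-count filter, COL9A1 and CNMD had no count in any library, and ACAN and COL2A1 had 13 and 11 counts in all. These markers summed to 56.6 to 89.1 CPM in control libraries and 68.8 to 82.6 CPM in ZEB1 libraries, most of it SOX9. Epithelial markers summed to 931 to 1025 CPM and 876 to 1020 CPM, nearly all of it KRT8 and KRT18, and leukocyte markers to 180 to 202 CPM and 170 to 260 CPM, most of it SRGN, with CD3E at no count. Endothelial markers summed to 78.9 to 91.9 CPM and 64.9 to 103 CPM, and neuronal markers to 430 to 446 CPM and 369 to 451 CPM. The ranges of these sums overlap between the groups, while single markers had means that were higher or lower under ZEB1. By edgeR, 0 of the 12 markers with enough counts were called at an adjusted p of 0.05. With no adjustment 2 of them had an edgeR p below 0.05, both higher under ZEB1, against 5.83% of all genes higher and 3.57% lower. These 2 were SRGN, with 144 ± 9.39 CPM against 190 ± 45.3 CPM, and the endothelial PECAM1, with 1.44 ± 0.351 CPM against 5.94 ± 2.15 CPM (SD, n = 3). PECAM1 had 64 counts in all libraries together. The other endothelial markers tested went in both directions, and neither had an unadjusted p under 0.05. EGFL7 had a log2 fold change of 0.12 (edgeR unadjusted p = 0.648) and ENG of -0.15 (0.564). The other leukocyte markers tested had lower means. LAPTM5 had 36.4 ± 1.85 CPM against 24.9 ± 5.80 CPM (edgeR unadjusted p = 0.0606), and CORO1A 10.4 ± 1.93 CPM against 5.07 ± 3.83 CPM (0.119). The part of other cell types in the results was not tested.

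Of the 10 genes, 9 had lower mRNA with the ZEB1 vector than with the control vector, where 51.5% of all genes tested did. DUSP6, IER3 and PHLDA1 were lower in every ZEB1 library than in every control library, by 1.56-fold, 1.46-fold and 1.32-fold, and EGR1, the early gene with the CArG boxes, was at 1.08 times its control level. None of the 10 passed an edgeR adjusted p of 0.05 over the 11329 genes, a threshold that 0.00883% of genes passed. At an unadjusted p under 0.05 there were 3 of the 10, against 9.40% of all genes, with 3 lower and 0 higher against 3.57% and 5.83%. DESeq2 gave an adjusted p to 2324 of the same genes and to 3 of the 10, DUSP6, IER3 and PHLDA1. Of these 3 it called DUSP6 (adjusted p = 0.0427), where 0.602% of the 2324 genes were called lower and 6.88% higher. The limma-voom test called 0 of the 10, with 0.0353% of genes called lower, and 0 with sample quality weights, with 0.0883%. The median log2 fold change was -0.43 over the 10 genes and -0.01 over all genes. It was -0.25 over the 9 genes still tested when every library was thinned to 1277632 counts, where SPRY2 failed the filter, and -0.40 without SPRY2 at full depth.

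**Figure D1:**
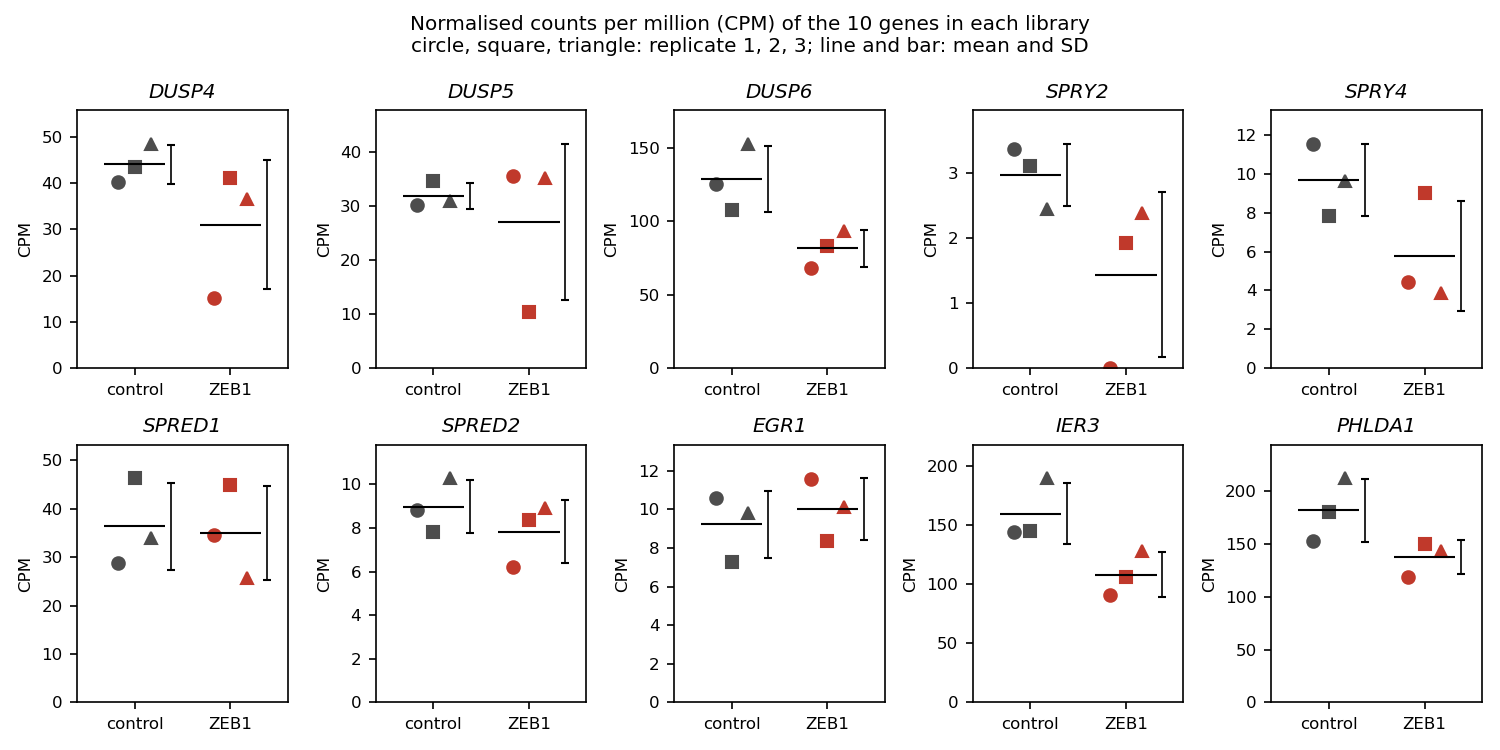
CPM of each gene (vertical axis, from 0) in the 3 control (grey) and 3 ZEB1 (red) libraries, with circles, squares and triangles for replicates 1, 2 and 3, a line at the mean and a bar of 1 SD. The red points of DUSP6, IER3, PHLDA1 and, by a narrow margin, SPRY2 lie below all grey points, where 8.16% of all genes did. Those of EGR1 and SPRED1 overlap them.

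DUSP6 is a phosphatase closely tied to ERK: it sits in the cytoplasm, acts on ERK over the other MAP kinases and is itself raised by ERK signalling. It stood at 125, 108 and 153 CPM under the control vector and at 68.4, 83.0 and 93.5 CPM under ZEB1, from 782, 593 and 937 counts and 77, 129 and 314 counts. The groups do not overlap, and the lowest control lay above the highest ZEB1 library. Its log2 fold change was -0.64 (SE 0.19, approximate 95% interval -1.04 to -0.25, n = 3 per group, edgeR unadjusted p = 0.00288 and adjusted p = 0.235), and it ranked 138 of 11329 genes by p. Whether it was called changed with the test, as given for DESeq2, and with ZEB1 replicate 3: without that library the log2 fold change was -0.77 and the edgeR adjusted p 0.0417, in a fit where 0.984% of genes were called lower. On leaving out each of the 6 libraries in turn the log2 fold change was -0.77 to -0.51. The gene lies on chromosome 12 (89347235 to 89352501, GRCh38.p14) within the annotated readthrough gene POC1B-DUSP6, for which no counts were listed.

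DUSP4, a nuclear relative that acts on ERK and on JNK, stood at 40.3, 43.4 and 48.5 CPM under the control vector and at 15.1, 41.2 and 36.6 CPM under ZEB1. The low value was that of replicate 1, from 17 counts, and ZEB1 replicate 2 lay within the control range. The log2 fold change was -0.47 (SE 0.29, interval -1.08 to 0.15, edgeR adjusted p = 0.672), and -0.19 without ZEB1 replicate 1.

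DUSP5 is a nuclear phosphatase specific for ERK. Its levels were 30.2, 34.6 and 30.8 CPM under the control vector and 35.5, 10.3 and 35.2 CPM under ZEB1. A single library was low, replicate 2 with 16 counts, and the other two lay above all controls. The log2 fold change of -0.23 (SE 0.35, interval -0.96 to 0.50, edgeR adjusted p = 0.892) turned to 0.14 without ZEB1 replicate 2. Of the 3 phosphatases, DUSP4 was thus at its lowest in ZEB1 replicate 1, DUSP5 in replicate 2, and DUSP6 was below the controls in all 3.

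The Sprouty genes had few counts. SPRY4, which blocks Ras activation by growth factor receptors, stood at 11.5, 7.84 and 9.63 CPM under the control vector and at 4.44, 9.0 and 3.87 CPM under ZEB1, from 43 to 72 and 5 to 14 counts. ZEB1 replicates 1 and 3 lay below the control range, with replicate 2 inside it. Its log2 fold change was -0.77 (SE 0.55, interval -1.93 to 0.39, edgeR adjusted p = 0.724) with all libraries, -1.24 without ZEB1 replicate 2 and -0.50 without ZEB1 replicate 3. On chromosome 5 the SPRY4 gene (142310430 to 142325021) also holds the noncoding RNA SPRY4-IT1, for which no counts were listed.

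SPRY2, which binds receptor adaptors and the ubiquitin ligase CBL, was counted 21, 17 and 15 times under the control vector and 0, 3 and 8 times under ZEB1. In CPM that was 3.37, 3.10 and 2.45 against 0, 1.93 and 2.38. No pair of values overlaps, but the gap between the groups was 2.45 against 2.38 CPM, and the values of ZEB1 replicates 1 and 2 lay at or under the level that 3 counts give. The log2 fold change of -0.86 (SE 1.01, interval -2.97 to 1.26, edgeR adjusted p = 0.858) has an interval that spans both directions, and a difference was not detectable at this depth. It was -0.44 without ZEB1 replicate 1 and -1.47 without ZEB1 replicate 3.

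The Spred proteins hold Ras in check by bringing neurofibromin, the Ras GTPase-activating protein, to the membrane. SPRED1 stood at 28.9, 46.3 and 33.9 CPM under the control vector and at 34.7, 45.0 and 25.6 CPM under ZEB1. Those groups overlap, with ZEB1 replicate 3 alone below the control range, and a log2 fold change of -0.07 (SE 0.29, interval -0.67 to 0.53, edgeR adjusted p = 0.964). It was 0.14 without control replicate 2 and 0.13 without ZEB1 replicate 3. SPRED2 stood at 8.82, 7.84 and 10.3 CPM under the control vector and at 6.22, 8.36 and 8.94 CPM under ZEB1. There ZEB1 replicate 1, with 7 counts, was the one below the control range, and the log2 fold change was -0.17 (SE 0.50, interval -1.21 to 0.87, edgeR adjusted p = 0.948). It was -0.05 without that library. As a ratio of ZEB1 to control, the SPRED2 interval runs from 0.433 to 1.82, so the data do not show that its level was equal. No other RefSeq gene overlaps SPRED1 (chromosome 15, 38252836 to 38357249), SPRED2 (chromosome 2, 65307175 to 65432599), SPRY2 (chromosome 13, 80335976 to 80341126), DUSP4 (chromosome 8, 29333064 to 29350684) or DUSP5 (chromosome 10, 110497907 to 110511533).

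**Figure D2:**
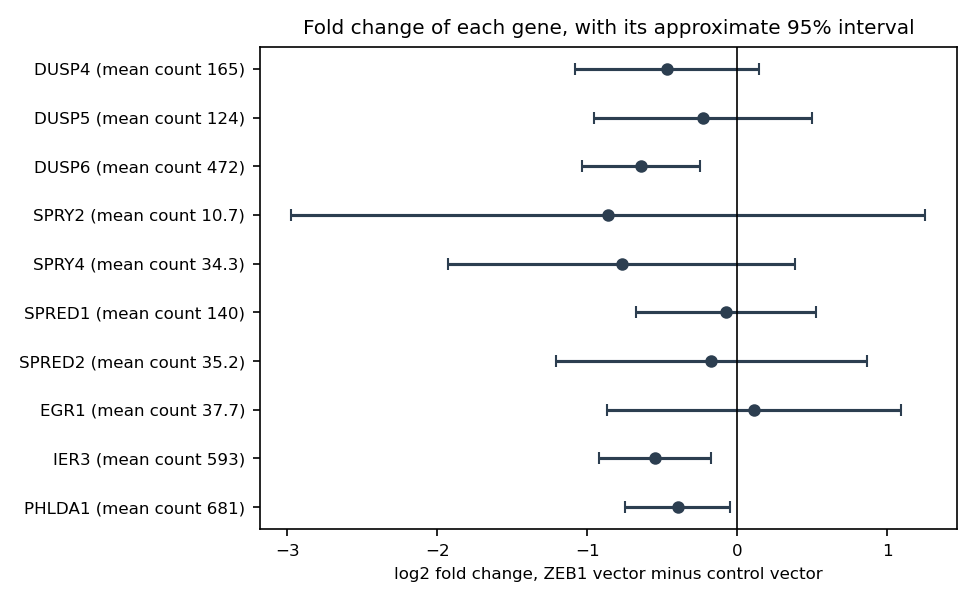
Log2 fold change of ZEB1 vector against control vector (horizontal axis) for the 10 genes, points with approximate 95% intervals from the edgeR fit, and the mean count per library beside each name. The intervals of DUSP6, IER3 and PHLDA1 lie below 0, that of SPRY2, at -2.97 to 1.26, is the widest, and all the others cross 0.

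Among the ERK-induced genes, IER3 encodes a short-lived protein that is both a substrate of ERK and a survival factor, and it also responds to NF-kappaB and p53. Its levels were 144, 145 and 190 CPM under the control vector and 90.6, 106 and 128 CPM under ZEB1, from 798 to 1164 and 102 to 430 counts. Every ZEB1 library lay below every control. The log2 fold change was -0.55 (SE 0.18, interval -0.92 to -0.17, edgeR unadjusted p = 0.00621 and adjusted p = 0.273). Without ZEB1 replicate 3 it was -0.70 with an edgeR adjusted p of 0.0430, and without control replicate 3, the highest control, -0.41. The annotation places the antisense RNA IER3-AS1 over the gene (chromosome 6, 30743199 to 30744547), with no counts listed for it, and whether strand was used in counting is not given in the sources used here.

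PHLDA1, a pleckstrin-homology-like protein raised by ERK and by several stresses, stood at 152, 180 and 212 CPM under the control vector and at 119, 150 and 143 CPM under ZEB1. The groups were separated by a narrow margin, 152 against 150 CPM. The log2 fold change was -0.40 (SE 0.17, interval -0.75 to -0.04, edgeR unadjusted p = 0.0294 and adjusted p = 0.462). It was -0.52 without control replicate 1 and -0.27 without control replicate 3, and its adjusted p stayed above 0.05 in every alternative run. The antisense RNA PHLDA1-AS1 is annotated over the gene (chromosome 12, 76025447 to 76031776), again with no counts listed.

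EGR1, a zinc finger factor and a classic first responder to ERK, stood at 10.6, 7.29 and 9.79 CPM under the control vector and at 11.6, 8.36 and 10.1 CPM under ZEB1. The groups overlap, and ZEB1 replicate 1, in which DUSP6, IER3 and PHLDA1 were lowest, held the highest EGR1 value. From 40 to 66 counts in the controls and 13 to 34 with ZEB1, the log2 fold change was 0.11 (SE 0.47, interval -0.87 to 1.09, edgeR adjusted p = 0.966). Scaled by library size alone it was -0.024, and without control replicate 2 it was -0.033. As a ratio the interval runs from 0.547 to 2.13.

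Across libraries, the 10 genes were lowest in ZEB1 replicate 1. Their median log2 CPM relative to the control mean was -0.70 in ZEB1 replicate 1, -0.19 in replicate 2 and -0.28 in replicate 3, and -0.07 to 0.12 in the controls, while the medians over all genes were -0.06 to 0.01. ZEB1 replicate 1, the shallowest library, held the lowest of the 6 values for 6 of the 10 genes, and control replicate 3 the highest for 5. The shares of all genes so placed were not computed, so these 2 counts show nothing particular to the 10. In ZEB1 replicate 1, 7 of the 10 lay below all controls and 2 (DUSP5 and EGR1) above them, where 41.9% and 34.4% of all genes did. In replicate 2 it was 5 below and 0 above, against 37.4% and 34.4%, and in replicate 3 it was 7 below and 1 (DUSP5) above, against 28.2% and 27.3%. The 7 of replicate 1 included SPRED2, and the 7 of replicate 3 had SPRED1 in its place. The part of depth in these counts was not tested. All 3 ZEB1 libraries were below all controls for 4 of the 10, DUSP6, IER3, PHLDA1 and SPRY2, against 8.16% of all genes, and 0 of the 10 were above in all 3, against 6.96%. SPRY2 passed the low-count filter through its control libraries, failing it without control replicate 1 or 2, and without SPRY2 the count was 3 of 9. Scaled by library size alone DUSP4 joined the 4, and 12.5% of all genes were so placed.

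**Figure D3:**
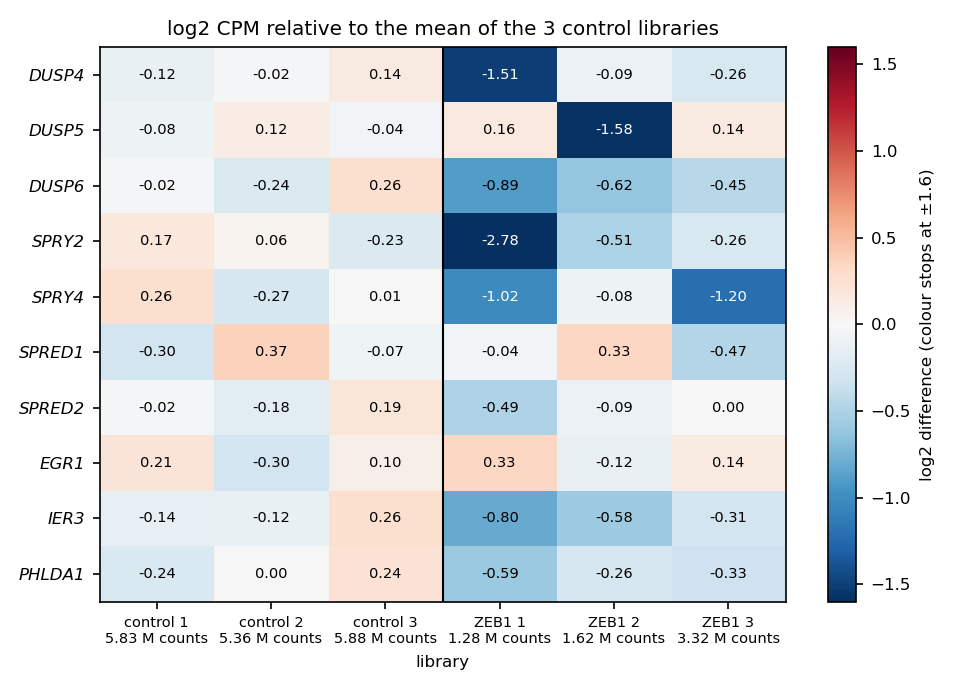
Difference in log2 CPM from the mean of the 3 control libraries for each gene (rows) in each library (columns, with total counts), blue for lower and red for higher. DUSP4, DUSP6, SPRY2, SPRY4, IER3 and PHLDA1 are negative in all 3 ZEB1 columns. Isolated dark cells mark DUSP4 and SPRY2 in ZEB1 replicate 1, DUSP5 in replicate 2 and SPRY4 in replicates 1 and 3.

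Depth and RNA composition also differed between the groups. The share of counts from 86 ribosomal protein genes was 24.0%, 20.7% and 18.2% under ZEB1, in reverse order of depth, against 15.8% to 18.03% under the control vector. DUSP6, IER3, SPRY2 and SPRED2 had the same order as depth within the ZEB1 group, lowest in replicate 1 and highest in replicate 3, and the other 6 genes did not. The part of the ribosomal share in these values was not tested. After thinning to equal depth DUSP6 was at -0.59 (unadjusted p = 0.00809), IER3 at -0.51 (0.0148) and PHLDA1 at -0.45 (0.0129), by edgeR and with no adjusted p under 0.05. With the 2 shallow ZEB1 libraries left out together, ZEB1 replicate 3 was compared alone with the controls, on the assumption that it varies as they do. DUSP6 was then at -0.47 (unadjusted p = 0.0235), IER3 at -0.33 (0.0872), PHLDA1 at -0.35 (0.0630) and SPRY4 at -1.32 (0.0396), by edgeR and with no adjusted p under 0.05.

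**Figure D4:**
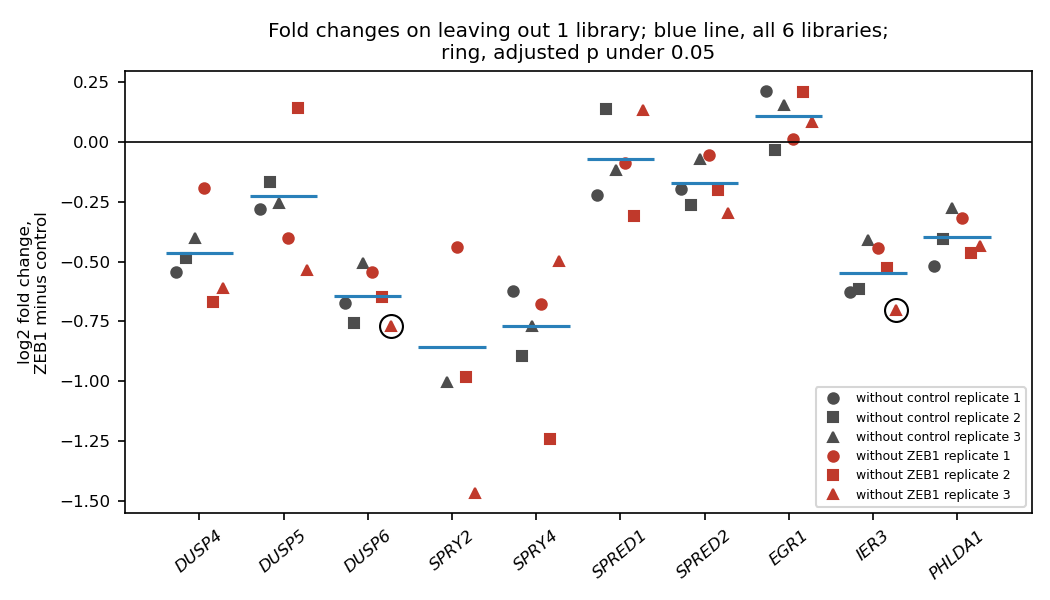
Log2 fold change of each gene (vertical axis) on leaving out 1 control (grey) or 1 ZEB1 (red) library, with circles, squares and triangles for replicates 1, 2 and 3, a blue line for the fit on all 6 libraries and a ring where the edgeR adjusted p was under 0.05. The rings stand at DUSP6 and IER3 without ZEB1 replicate 3, DUSP5, SPRED1 and EGR1 cross 0, and SPRY2 has no point for 2 fits in which it failed the low-count filter.

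The genes whose profile over the 6 libraries was nearest to that of DUSP6 were sought by the root mean square difference in log2 CPM relative to the control mean, among 5625 genes outside the 10 whose counts averaged 100 or more. They were KANK2 (0.0892), COL6A3 (0.101), JUNB (0.109), AKAP12 (0.113) and WDR13 (0.127). Of the members, IER3 was at 0.0947, with 1 of the 5625 genes nearer, and PHLDA1 at 0.236, with 136 nearer. DUSP4 and SPRED2 were at 0.356 and 0.329, with 835 and 606 nearer. SPRY4 had 1405 genes nearer, EGR1 3530, SPRED1 3547, DUSP5 4043 and SPRY2 4946. Unlike the 5625 genes, SPRY2, SPRY4, SPRED2 and EGR1 averaged fewer than 100 counts, and SPRY2 had 0 in ZEB1 replicate 1. The part of low counts in their distances was not tested.

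The rest of the pathway was read from 6 lists of 108 genes, of which 95 were tested. These lists too were chosen with earlier results of these data known, so their counts are descriptive. By edgeR, 0 of the 95 passed an adjusted p of 0.05, 9 were lower and 0 higher at an unadjusted p under 0.05 (against 3.57% and 5.83% of all genes), and the median log2 fold change was -0.13. DESeq2 gave 20 of the 95 an adjusted p and called 1 of those 20, FOSL1, lower, against 0.602% of all genes it adjusted, and limma-voom called 0 of the 95. Medians by role ran from 0.09 for the adaptors, exchange factors and Ras genes to -0.26 for the other ERK-induced genes. The phosphatases for JNK, p38 and other targets were lowest in place of the ERK-induced genes with limma-voom (-0.29 against -0.27) and without ZEB1 replicates 1 and 2 (-0.45 against -0.24). Scaled by library size alone they ran from -0.028 to -0.38, with the median of all genes at -0.14.

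Upstream, the 14 tested adaptor, exchange factor and Ras genes split into 6 lower and 8 higher. HRAS, a Ras isoform, averaged 178 ± 13.9 CPM under the control vector and 141 ± 10.5 CPM under ZEB1 (SD, n = 3, log2 fold change -0.34, edgeR unadjusted p = 0.0435, adjusted p = 0.520). With RLE or upper-quartile scaling, and with DESeq2, 0 of these 14 genes had an unadjusted p under 0.05. The phosphatase PTPN11, which helps Ras activation, was at 0.16 and the adaptor GRB2 at 0.04. The core kinases, scaffolds and ERK effector kinases had a median of -0.11 over 16 tested genes, with 0 at an unadjusted p under 0.05. Their most counted genes were the MEK gene MAP2K2 (log2 fold change -0.09), the scaffold IQGAP1 (-0.13) and the ERK-activated kinase MKNK2 (-0.04).

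Inhibitors of Ras and ERK outside the 10 had a median of -0.13 over 15 tested genes, 12 lower and 3 higher, where 51.5% of all genes were lower. The abundant PEBP1, which binds Raf, averaged 354 ± 18.6 CPM under the control vector and 346 ± 39.3 CPM under ZEB1 (SD, n = 3), and PEA15, which keeps ERK in the cytoplasm, was at a log2 fold change of -0.07. ERRFI1, the feedback inhibitor of the EGF receptor, was at 0.07. Of the scarcer genes, DAB2IP, a Ras GTPase-activating protein, stood at 16.4, 10.2 and 10.8 CPM under the control vector and at 0, 5.14 and 6.55 CPM under ZEB1 (log2 fold change -1.50, SE 0.62, edgeR adjusted p = 0.446). With 0 counts in ZEB1 replicate 1, DAB2IP passed the low-count filter only with the help of its control libraries. Its place among the 9 genes lower at an unadjusted p under 0.05 rests in part on that filter. LRIG1, which lowers receptor levels, was at -1.03 (SE 0.48, edgeR adjusted p = 0.520), with ZEB1 replicate 1 inside the control range.

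The list of phosphatases for JNK and p38 and atypical DUSPs is a grouping that does not exclude action on ERK. It had a median of -0.12 over 12 tested genes, which was -0.29 with limma-voom and -0.45 over 13 genes without ZEB1 replicates 1 and 2. DUSP1, the stress-induced nuclear phosphatase, stood at 15.1, 15.9 and 14.7 CPM under the control vector and at 11.6, 8.36 and 2.38 CPM under ZEB1 (log2 fold change -1.17, SE 0.52, edgeR unadjusted p = 0.0351, adjusted p = 0.486). Its lowest value was in ZEB1 replicate 3, the deepest of that group. In 5 of the 12 genes all ZEB1 libraries lay below all controls, against 8.16% of all genes. Those beside DUSP1, named after their values were seen, were DUSP2 (-1.02), DUSP10 (-0.74), DUSP16 (-0.84) and DUSP18 (-0.996). ZEB1 replicate 1 had 0 counts for DUSP2 and DUSP18 and 2 counts for DUSP16. DUSP2, DUSP16 and DUSP18 passed the low-count filter only with the help of their control libraries, so the count of 5 rests in part on that filter. The most counted genes of the list were nearer to 0, with DUSP3 at -0.09, DUSP12 at 0.03 and DUSP14 at 0.32.

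ETS and SRF factors, through which ERK reaches its genes, had a median of -0.10 over 12 tested genes and 0 at an unadjusted p under 0.05. SRF was at -0.28 (97.2 ± 4.29 CPM under the control vector and 79.9 ± 12.5 CPM under ZEB1, SD, n = 3, edgeR adjusted p = 0.693), ELK3 at -0.09 and ETS1 at 0.15.

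The other ERK-induced genes had 21 lower and 5 higher of 26 tested, with a median of -0.26, where 51.5% of all genes were lower. The 5 higher, named after their values were seen, were FOS (log2 fold change 0.78), NR4A1 (0.44), KLF4 (0.13), CSRNP1 (0.11) and ZFP36L1 (0.02). By edgeR none of these had an unadjusted p under 0.05. The 5 with an unadjusted p under 0.05, all lower, were FOSL1, PLAUR, JUNB, HBEGF and LIF, against 3.57% of all genes lower and 5.83% higher. FOSL1, an AP-1 subunit whose gene and protein are both controlled by ERK, stood at 181, 153 and 168 CPM under the control vector and at 82.6, 96.5 and 134 CPM under ZEB1 (log2 fold change -0.66, SE 0.18, edgeR adjusted p = 0.225, DESeq2 adjusted p = 0.0302). Like DUSP6 and IER3 it was lowest in ZEB1 replicate 1 and highest in replicate 3. PLAUR, the urokinase receptor, stood at 226, 219 and 247 CPM under the control vector and at 186, 127 and 183 CPM under ZEB1 (log2 fold change -0.48, edgeR adjusted p = 0.305). JUNB, an AP-1 subunit, was at -0.68 (edgeR adjusted p = 0.363), HBEGF, a ligand of the EGF receptor, at -0.66 (0.363) and the cytokine gene LIF at -0.67 (0.452). The cyclin gene CCND1 had a log2 fold change of -0.36 and PHLDA2, a relative of PHLDA1, of -0.21. In 8 of the 26 genes all ZEB1 libraries lay below all controls, again against 8.16% of all genes, while EGR2, EGR3, EGR4, EPHA4 and ARC had too few counts to be tested.

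**Figure D5:**
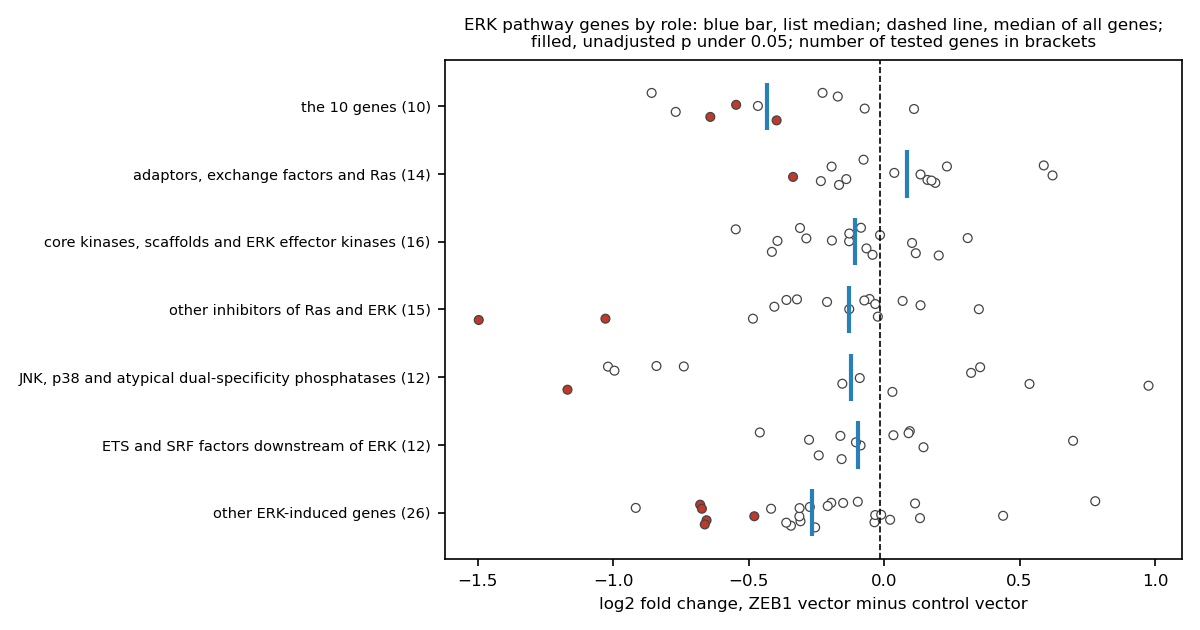
Log2 fold change of ZEB1 vector against control vector (horizontal axis) for each tested gene of the pathway, in rows by role, with a blue bar at the row's median, a dashed line at the median of all genes and filled points for an unadjusted p under 0.05. In this edgeR fit the medians of the 10 genes (-0.43) and of the other ERK-induced genes (-0.26) lie left of the other rows, which span -0.13 to 0.09.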

How the data were processed

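The values are raw read counts per Entrez gene ID for 6 libraries, in a table the authors deposited. The submitters' processing notes name HISAT2, Subread, featureCounts and GRCh38, with no versions. Strand setting, annotation release and use of molecular identifiers: not given in the sources used here. Names, positions and promoter windows came from RefSeq tables of GRCh38.p14, which matched 27745 of 28395 IDs. The test was edgeR 4.0.16 in R 4.3.3 (TMM factors, filterByExpr, quasi-likelihood test with robust dispersions, group as the only term, two-sided, Benjamini-Hochberg over 11329 genes). Standard errors and 95% intervals were derived from each F statistic and are approximate. Log2 CPM used a prior count of 2. The steps were tested on simulated counts. Alternatives were DESeq2 1.42.0, limma-voom (limma 3.58.1), other scalings and filters, thinning, a block for the replicate number and leaving out libraries. DESeq2 on all genes with a count was added after seeing the data. The members, lists and tests were chosen with earlier results of these data known. All members were named, with the 3 genes of highest mean count of each list, its genes with an unadjusted p under 0.05 and the 5 genes nearest to DUSP6. Pairs of libraries within a group differed by more than sampling noise (chi-square per degree of freedom of 6.30 to 11.4). Figures were drawn with matplotlib 3.10.9.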

Additional observations from a re-analysis of the deposited data

How the results depend on the processing

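The number of genes past an adjusted p of 0.05 was 1 in edgeR, and 1 to 409 when a single library was left out, the 409 being without ZEB1 replicate 3. It was 127 with no filter on low counts, 174 with DESeq2 (205 on all genes with a count), 58 with limma-voom, 154 with quality weights, 2 without ZEB1 replicates 1 and 2 together and 0 with ZEB1 left out of the table. The number of the 10 genes called was 0, or 0 to 2 on leaving out single libraries (DUSP6 and IER3 without ZEB1 replicate 3) and 1 with DESeq2. On all genes with a count DESeq2's filtering gave DUSP6 no adjusted p and IER3 one of 0.0643. The number lower at an unadjusted p under 0.05 was 3, or 1 to 4 on leaving out single libraries, and was 1 (DUSP6) without control replicate 3. The median of the 10 was -0.55 to -0.25 over all alternatives. DUSP6, IER3, PHLDA1, DUSP4, SPRY2, SPRY4 and SPRED2 were below 0 in every alternative that gave a value, and DUSP5, SPRED1 and EGR1 were not. On leaving out single libraries DUSP5 was at -0.54 to 0.14, SPRED1 at -0.31 to 0.14 and EGR1 at -0.033 to 0.21. DUSP5 was at 0.14 without ZEB1 replicates 1 and 2 together and EGR1 at -0.024 with library size alone, which moved the median of all genes from -0.01 to -0.14. The causes of these changes were not tested. With the replicate number as a block the median of the 10 was -0.48, 1 gene was called and 0 of the 10. The deviations of same-numbered libraries from their group means correlated at -0.03, -0.01 and 0.01 for replicates 1, 2 and 3. No library correlated best with the one of its own number, so the numbers were not taken to pair the libraries. Depth limits SPRY2, SPRY4, SPRED2 and EGR1, which had mean counts of 10.7 to 37.7.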
